A study of Caenorhabditis elegans with 6 samples.

Results

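The phat genes of Caenorhabditis elegans form a small family of secreted proteins related to toxins and named for their expression in the pharyngeal glands. The family was taken here as every gene on the array whose current symbol starts with phat-, which gave 8 genes (phat-1 to phat-8) of the 17922 genes with a probe, and each of the 8 had 1 probe. The pharynx is the muscular feeding organ of the worm. Its gland cells send secretions through fine ducts into the lumen, where they are thought to help with feeding and with shedding of the old lining at each moult, and the transcription factor HLH-6 is needed for the glands to differentiate. The family was chosen with its ratios of diazinon-treated over control worms already known, so those ratios are given as a description, without a p-value for any member, and counts past a threshold stand only beside the same count over all worm probes.

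Worms of the wild type strain N2 were raised from eggs on agar with diazinon (DZN), an insecticide of the organophosphorus class whose target is acetylcholinesterase, and were set against worms raised on agar with the acetone solvent alone. Collection was after 72 h at 16 °C, and the stage is given both as L3/L4 and as L3. The dose is given as 1 mg/ml in the sample names and as 0.5 mg/ml in the treatment protocol, while the methods of the study state it per litre, so that it is not settled here. Each of 6 two-colour arrays held a DZN extract and a control extract, 3 with DZN labelled in Cy5 (DZN-Cy5 replicates 1 to 3) and 3 with DZN in Cy3 (DZN-Cy3 replicates 1 to 3), and the design text calls all 6 biological replicates. Each extract came from whole worms pooled from several dishes. A change in the share of gland tissue in the worm and a change in RNA per gland cell therefore cannot be told apart. Per channel, 49.7% to 66.2% of worm probes were above background where DZN was in Cy5, and 63.3% to 81.4% where it was in Cy3. Markers of intestine, body wall muscle, hypodermis, neurons and germline were measured, and none of them was below background in every channel.

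Most phat spots were bright enough to measure. Above background means here that the intensity exceeded the local background by more than 2 SD of that background. By this measure 6 of the 8 phat probes were above background in all 12 channels, and none was saturated in any channel. The exceptions were phat-3, which failed in the control channel of DZN-Cy5 replicate 2, and phat-5, which failed in both channels of DZN-Cy5 replicate 1.

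The first question was how each member differed between DZN-treated and control worms. Ratios are on the log2 scale, where 1 is a doubling, and the error after a ± sign is the standard error of the limma fit over 6 arrays, unless SD is stated. That fit has a dye term, so the error leaves out the difference between dye orientations and is not the full spread between arrays. The limma mean weights both dye orientations equally, so with an array left out it is the mean of the 2 orientation means and can differ from the plain average of the 5 ratios left. The highest members were phat-3 and phat-5 with means near 1, phat-7 lay between, and the other 5 had means within 0.2 of 0. In limma 0 of the 8 probes passed an adjusted p of 0.05, against 4 (0.0178%) of the 22490 worm probes, 0.0133% higher and 0.00445% lower in DZN-treated worms. At an unadjusted p under 0.05 there were 2 of 8, both higher, against 10.9% of all worm probes in either direction and 3.37% in the higher one. As the family was chosen on this comparison, nothing is read from these counts. The family median was 0.15, with 6 of 8 members above 0, against a median of 0.00 and 50.8% above 0 over all worm probes, and it was -0.01 without DZN-Cy3 replicate 3.

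Where 3 ratios are given for a dye orientation, they stand in the order of replicates 1 to 3. For phat-3 (C49G7.4) the ratios were 0.43, 0.90 and 0.85 with DZN in Cy5 and 0.18, 1.24 and 2.75 with DZN in Cy3. It was the single member with a positive ratio on 6 of 6 arrays, which was seen for 2.06% of worm probes, while 0 members had a negative ratio on 6 of 6, seen for 3.11%. Its mean was 1.06 ± 0.29, or 2.08-fold. Its log2 intensity had a lowest, median and highest value of 8.61, 11.07 and 12.44 in DZN-treated worms and 8.18, 9.88 and 10.82 in control worms. The ranges of both treatments thus overlapped widely although DZN was the higher channel on every array. On DZN-Cy3 replicate 3 the probe ranked 93rd from the top of the 22490 worm probes, and on DZN-Cy3 replicate 1 it ranked 5789th. Without DZN-Cy3 replicate 3 the mean was 0.72.

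For phat-5 (T05B4.11) the ratios were -0.28, 0.83 and -0.18 with DZN in Cy5 and 0.67, 1.36 and 2.90 with DZN in Cy3. Of the 6 ratios 4 were above 0, and both below 0 came from arrays with DZN in Cy5. The limma mean was 0.89 ± 0.29, and leaving out DZN-Cy3 replicate 3 gave 0.57, or 0.48 as a plain average. The spot was dim: on DZN-Cy5 replicate 1, its foreground was 193 for DZN against a local background of 180, and 263 for control against 225. With that array left out the limma mean was 0.99 and the plain average 1.12. The lowest, median and highest log2 intensity were 6.63, 8.22 and 9.92 in DZN-treated worms and 6.91, 7.23 and 8.93 in control worms, again with overlap.

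The gene phat-7 (C49G7.3) lies next to phat-3 in the RefSeq gene order of chromosome V. Its ratios came to -0.03, 0.29 and 0.01 with DZN in Cy5 and 0.11, 0.29 and 1.82 with DZN in Cy3. A single array therefore supplied most of its mean of 0.42 ± 0.22, which was 0.15 without DZN-Cy3 replicate 3.

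The genes phat-6 and phat-8 went both ways. For phat-6 (T10B10.6) the ratios were -0.28, 0.87 and -1.24 with DZN in Cy5 and -0.13, 0.35 and 1.60 with DZN in Cy3. For phat-8 (F15A4.6) they were -0.58, 0.46 and -1.26 with DZN in Cy5 and 0.08, 0.52 and 1.42 with DZN in Cy3. Both were most negative on DZN-Cy5 replicate 3 and most positive on DZN-Cy3 replicate 3, so that means of 0.20 ± 0.30 for phat-6 and 0.11 ± 0.25 for phat-8 averaged large ratios of opposite sign. Ratios of all worm probes also spread most on these arrays. Their SD was 0.59 on DZN-Cy5 replicate 3 and 0.62 on DZN-Cy3 replicate 3, against 0.39 to 0.51 on the others. Without DZN-Cy3 replicate 3 the sign turned, with limma means of -0.05 for phat-6 and -0.08 for phat-8 and plain averages of -0.08 and -0.16. Without DZN-Cy5 replicate 2 the limma means were -0.08 for phat-6 and -0.12 for phat-8, but the plain averages stayed above 0, at 0.06 and 0.04.

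The remaining members stayed close to 0. The gene phat-1 (C46H11.8), whose promoter is used to mark the glands in reporter strains, had ratios of -0.03, 0.11 and -0.09 with DZN in Cy5 and -0.02, -0.23 and -0.08 with DZN in Cy3. Its mean was -0.06 ± 0.09, with log2 intensities of 10.72 ± 0.62 in DZN-treated worms and 10.78 ± 0.62 in control worms (SD, n = 6 channels each). The gene phat-4 (T05B4.3) had ratios of -0.03, 0.03 and 0.18 with DZN in Cy5 and 0.01, -0.02 and -0.22 with DZN in Cy3. Its mean was -0.01 ± 0.10, at 13.76 ± 0.43 in DZN-treated worms and 13.76 ± 0.38 in control worms (SD). Between -0.40 and 0.62 lay the 6 ratios of phat-2 (C46H11.9), the neighbour of phat-1 in the RefSeq gene order, and its mean of 0.01 ± 0.14 was 0.16 without DZN-Cy3 replicate 2 and -0.08 without DZN-Cy3 replicate 3.

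**Figure D1:**
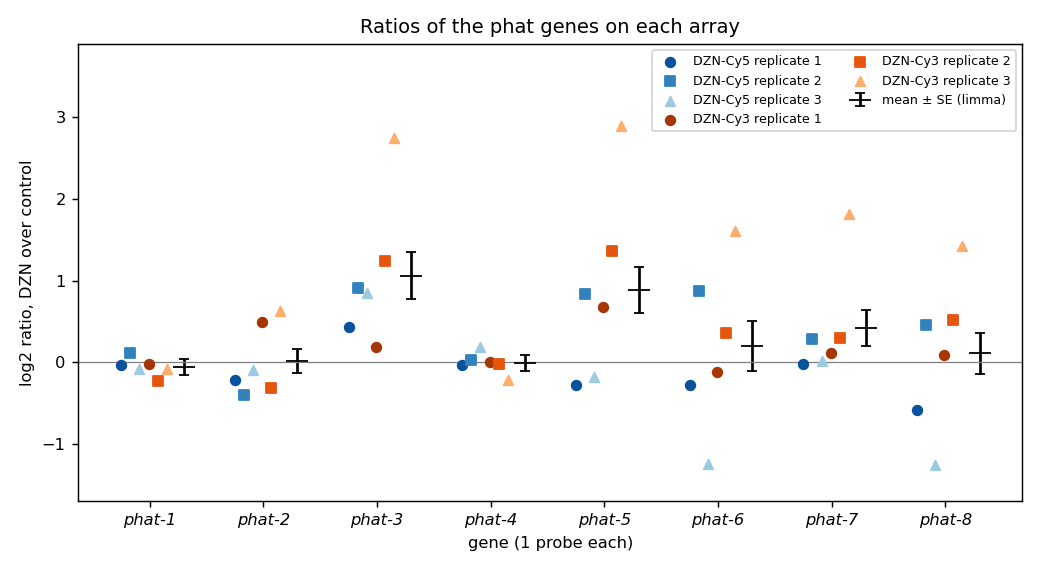
Log2 ratio of DZN over control (vertical axis) for each phat gene (horizontal axis), 1 symbol per array, with the limma mean ± standard error in black. The points of phat-1 and phat-4 stay between -0.23 and 0.18, while phat-3, phat-5, phat-6, phat-7 and phat-8 each reach their highest value on DZN-Cy3 replicate 3.

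**Figure D2:**
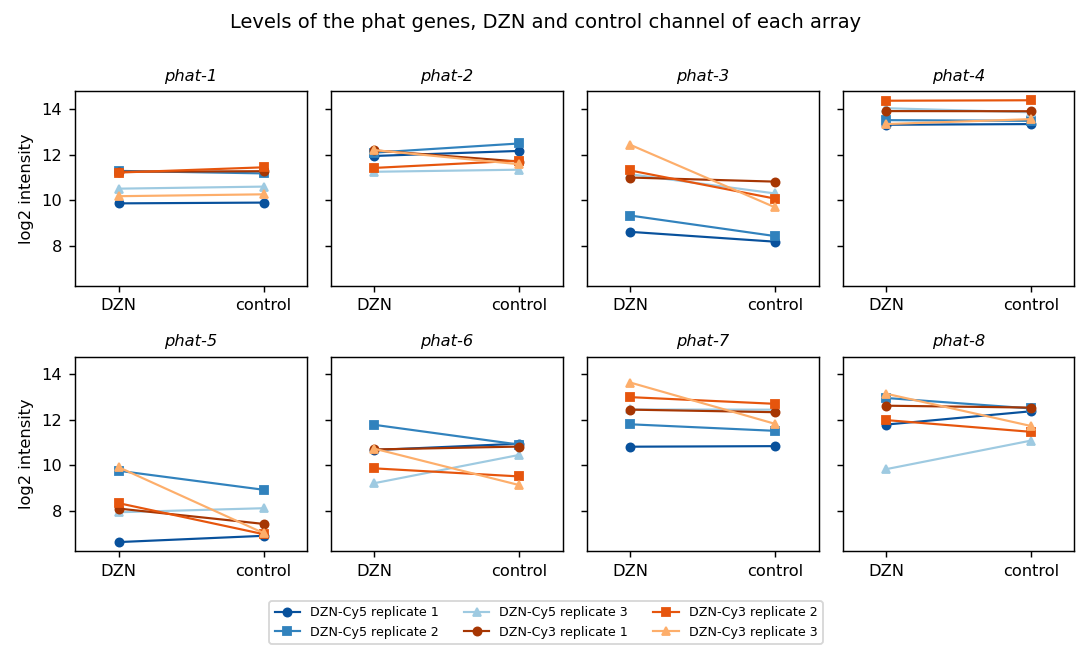
Log2 intensity after normalization (vertical axis) in the DZN channel and the control channel of each array, joined by a line, with 1 panel per phat gene. For phat-3 every line is higher at DZN than at control, while for phat-6 and phat-8 the lines cross in both directions.

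The members differed most in how much the ratio varied between arrays. The SD over 6 arrays was 0.91 for phat-3, 1.17 for phat-5, 0.99 for phat-6, 0.70 for phat-7 and 0.93 for phat-8, against 0.11 for phat-1, 0.13 for phat-4 and 0.44 for phat-2. Each was set beside the 1000 worm probes nearest in level, as dim and bright spots scatter differently. The median SD of such probes was 0.34 to 0.43. The share of those probes with a smaller SD was 97.6% for phat-5, 94.6% for phat-8, 94.5% for phat-6, 94.1% for phat-3 and 84.4% for phat-7, but 53.8% for phat-2, 3.9% for phat-4 and 0.6% for phat-1. The ratio spanned more than 2 log2 units over the arrays in 4 of the 8 members, phat-3, phat-5, phat-6 and phat-8, against 9.22% of worm probes. These spreads come from the ratios that were known when the family was chosen, so nothing is read from these shares or this count.

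**Figure D3:**
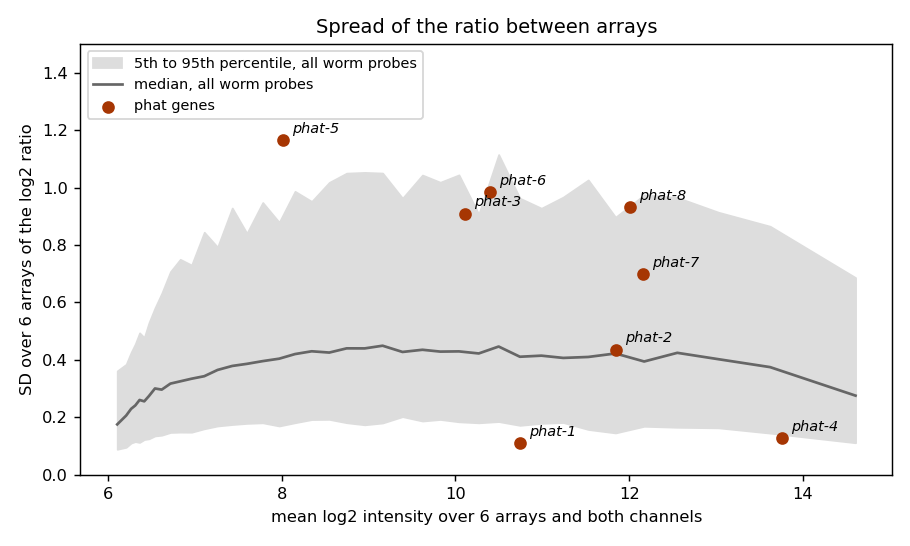
SD over 6 arrays of the log2 ratio (vertical axis) against the mean log2 intensity of the probe (horizontal axis); the line is the median of all worm probes in 40 bins of level and the band their 5th to 95th percentile. The point of phat-5 lies above the band, those of phat-3, phat-6 and phat-8 near its upper edge, that of phat-4 at its lower edge and that of phat-1 below it.

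The ratios of the same 5 members correlated over the 6 arrays, and each was highest on DZN-Cy3 replicate 3. This group was picked out after its values were seen and is described without a test. No correlation was taken without DZN-Cy3 replicate 3, so the part of that array in the values below was not tested. Over 6 arrays, which the genes share, Pearson's r between the ratios of 2 of the 5 genes ranged from 0.70 to 0.97 over the 10 pairs. The highest was phat-6 with phat-8, genes on chromosomes X and II, and phat-3 with its neighbour phat-7 gave 0.94. In contrast phat-1 gave -0.27 to 0.14 with these 5 genes, phat-2 gave 0.29 to 0.62 and phat-4 gave -0.85 to -0.69, although the ratios of phat-4 covered only 0.40 log2 units. The mean ratio of the 5 genes was -0.15, 0.67 and -0.36 with DZN in Cy5 and 0.18, 0.75 and 2.10 with DZN in Cy3. Over all 8 members the median was -0.13, 0.37 and -0.09 with DZN in Cy5 and 0.10, 0.32 and 1.51 with DZN in Cy3. Both adjacent pairs fell on one side of this division, phat-3 and phat-7 within the 5 and phat-1 and phat-2 outside them, while phat-5 and phat-4, with 3 measured genes between them on chromosome V, fell on opposite sides. Whether related probes picked up each other's transcripts was not tested, as no probe sequences were used here.

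The dye orientation was a comparison that did not enter the choice of the family. The mean ratio was lower with DZN in Cy5 than with DZN in Cy3 for 6 of the 8 members, all but phat-1 and phat-4, though with median centring in place of loess phat-2 and phat-7 turned the other way. The share of all worm probes lower with DZN in Cy5 was not taken, and the members share the 6 arrays. Nothing is therefore read from this count. The difference was -1.52 for phat-5, with means of 0.13 with DZN in Cy5 and 1.64 with DZN in Cy3, and -1.13 for phat-8, with means of -0.46 with DZN in Cy5 and 0.67 with DZN in Cy3. These differences leaned on DZN-Cy3 replicate 3: without it the difference was -0.89 for phat-5, -0.76 for phat-8, -0.33 for phat-6 and -0.11 for phat-7, against -0.83 for phat-6 and -0.65 for phat-7 with it, and phat-3 turned to 0.02, against -0.66, so that 5 of 8 members were lower with DZN in Cy5. In limma the dye term passed an adjusted p of 0.05 for 0 of 8 members and for 0 (0%) of all worm probes, with the lowest adjusted p of the family at 0.385 for phat-5. At an unadjusted p under 0.05 the dye term gave 1 of 8 members, phat-5, against 11.7% of worm probes. The share of probes above background differed with the orientation as given at the start, and its part in these differences was not tested.

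The next question was whether other genes of the glands and the pharynx differed in the same comparison. Of 7 other genes linked to the glands 6 were measured, all but nas-12. None was called by limma, none had an unadjusted p under 0.05, and their median was 0.05, against 0.00 for all worm probes. The gland regulator hlh-6 had a mean of -0.04 ± 0.11 (adjusted p = 0.916) and was above background on 4 of 6 arrays in DZN-treated worms and on 4 of 6 in control worms. The lysozyme gene lys-8 had 0.06 ± 0.10 (adjusted p = 0.866), with ratios between -0.05 and 0.23. The kelch-repeat gene kel-1 had -0.05 ± 0.18 (adjusted p = 0.945) and ratios between -0.82 and 0.50. The gene scl-3, which encodes a secreted protein of the SCP family, had ratios of 0.02, 0.79 and -0.70 with DZN in Cy5 and 0.39, 0.56 and 1.54 with DZN in Cy3, with a mean of 0.43 ± 0.22 (adjusted p = 0.528). It was thus highest on DZN-Cy3 replicate 3 and lowest on DZN-Cy5 replicate 3, as phat-6 and phat-8 were. Y8A9A.2 had 0.27 ± 0.27 (adjusted p = 0.741) and 1.43 on DZN-Cy3 replicate 3, while B0280.7 had 0.04 ± 0.15 (adjusted p = 0.945) and its highest ratio, 0.86, on DZN-Cy5 replicate 3.

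Of the pharynx outside the glands, 8 muscle genes had a median of -0.01, 6 regulators of pharynx development a median of 0.12, and 13 abu genes, which encode glutamine-rich proteins of the pharyngeal lining, a median of -0.04. No member of these lists was called, and none had an unadjusted p under 0.05. The most changed were tnc-2, a troponin C, with -0.37 ± 0.19 (adjusted p = 0.536), tni-4, a troponin I, with -0.24 ± 0.15 (adjusted p = 0.61) and abu-2 with -0.33 ± 0.27 (adjusted p = 0.679). With DZN in Cy5 and in Cy3, tnc-2 averaged -0.86 and 0.12, tni-4 -0.60 and 0.13, and abu-2 -0.03 and -0.63. The abu-3 probe, with -0.18 ± 0.13 (adjusted p = 0.656), was above background in 1 of 12 channels. Among the developmental regulators tbx-2 had 0.18 ± 0.11 (adjusted p = 0.608) and pha-1 had 0.18 ± 0.13 (adjusted p = 0.651) while above background on 1 of 6 arrays in each channel. In this list 6 of 6 means were above 0, against 50.8% of all worm probes. However, pha-2 (mean 0.06) was above background in no channel, and only 3 of the 6 genes were in all 12.

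On some arrays the genes of the moult, the periodic shedding of cuticle, had ratios opposite in sign to those of the phat genes. The 9 measured genes had a median of -0.33, with 8 below 0 (50.8% of all worm probes were above 0) and 0 called. For 1 of the 9 the unadjusted p was under 0.05, against 10.9% of all worm probes. Without DZN-Cy3 replicate 3 the median was -0.12. The astacin proteases nas-37 and nas-36, needed to shed the cuticle, had -0.59 ± 0.26 (adjusted p = 0.479) and -0.53 ± 0.20 (adjusted p = 0.425). By array the moult median was 0.02, -0.71 and 0.10 with DZN in Cy5 and -0.02, -0.28 and -1.27 with DZN in Cy3. The 3 arrays with the highest phat medians, DZN-Cy3 replicate 3, DZN-Cy5 replicate 2 and DZN-Cy3 replicate 2, were the 3 with the lowest moult medians, in the same order. The log2 of the summed intensity of the moult genes ranged from 15.31 to 16.18 in DZN-treated worms and from 15.89 to 16.37 in control worms, with all 9 above background in every channel. The part of these genes' shift in the phat ratios was not tested.

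**Figure D4:**
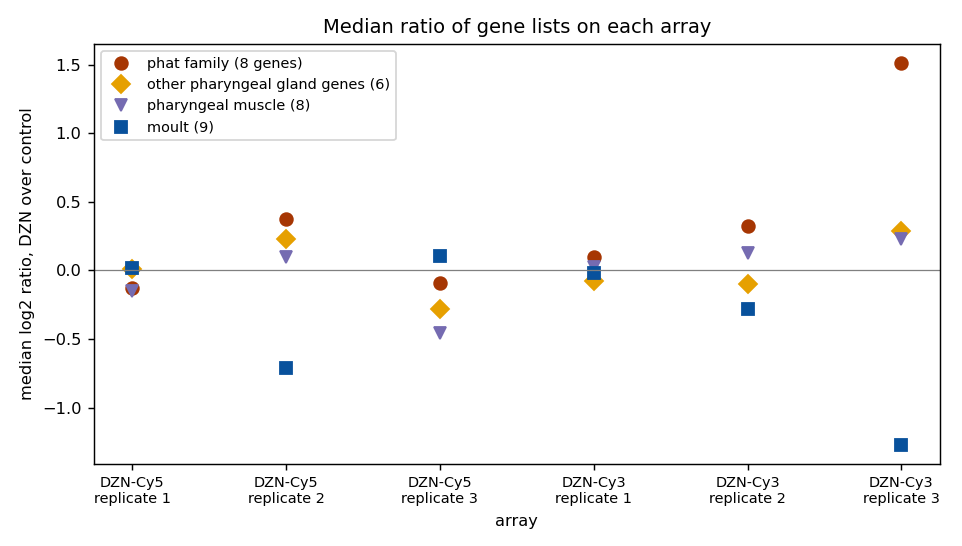
Median log2 ratio of DZN over control (vertical axis) on each of the 6 arrays (horizontal axis) for the phat family, other pharyngeal gland genes, pharyngeal muscle genes and moult genes. On DZN-Cy3 replicate 3 the phat median is 1.51 and the moult median -1.27, while the other gland genes and the muscle genes are at 0.29 and 0.23.

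Markers of other tissues showed smaller shifts, with medians of 0.03 for intestine, 0.00 for body wall muscle, 0.09 for hypodermis, 0.07 for neurons and 0.04 for germline, and 0 genes called in limma. At an unadjusted p under 0.05 there were 0 of 6, 0 of 6, 1 of 5, 3 of 8 and 1 of 6 genes in these lists, in that order. Over all worm probes the share was 10.9%. The most changed were ges-1, the gut esterase, with 0.55 ± 0.29 (adjusted p = 0.537), and ric-4, the neuronal SNAP-25, with -0.49 ± 0.20 (adjusted p = 0.438). The sign of ric-4 differed with the dye orientation, at -1.12 with DZN in Cy5 and 0.13 with DZN in Cy3. In the germline him-3, a protein of the meiotic chromosome axis, had -0.40 ± 0.10 (adjusted p = 0.281) and was below 0 on 6 of 6 arrays. On DZN-Cy3 replicate 3 ges-1 had 1.98, beside 1.19 on DZN-Cy5 replicate 2. The intestine median on these 2 arrays was 0.00 and -0.03.

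The genes next to the phat genes were read as well, 2 on each side by RefSeq gene order. Of 23 such neighbours outside the family 0 were called, 1 had an unadjusted p under 0.05 (10.9% of all worm probes) and the median was 0.06. Of the 23, 14 were above 0, against 50.8% of all worm probes, and 4 were above background in no channel. Beside phat-3 and phat-7 lie irg-2, an infection response gene, with 0.11 ± 0.12 (adjusted p = 0.767), and srh-169, a chemoreceptor gene above background in no channel. Beside phat-5, T05B4.12 had a ratio of -2.09 on DZN-Cy3 replicate 3, where phat-5 had 2.90, and a mean of -0.41 ± 0.27 (adjusted p = 0.61). The chitinase-like gene chil-28, which lies 2 genes from phat-8, was read from the brightest of its 4 probes. That probe had ratios from -1.40 to 4.28 over the arrays and a mean of 0.39 ± 0.62 (adjusted p = 0.848), with 4.28 again on DZN-Cy3 replicate 3. It was above background on 4 of 6 arrays in DZN-treated worms and on 5 of 6 in control worms.

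The genes whose ratios ran most like the family mean over the 6 arrays were sought among 8373 genes above background in every channel. They were rsl-24D1, a ribosome biogenesis gene, ora-1, pqn-88, dct-11 and clec-76, a C-type lectin gene, with Pearson's r of 0.998, 0.997, 0.996, 0.992 and 0.99. With 6 arrays such values are common: 276 genes (3.3%) had r above 0.9. Their sizes differed, with ratios from -0.34 to 0.54 for rsl-24D1 and from -0.92 to 3.26 for clec-76, and each was highest on DZN-Cy3 replicate 3. The means were 0.64 ± 0.39 for clec-76 (adjusted p = 0.582), 0.46 ± 0.26 for pqn-88 (adjusted p = 0.565) and -0.31 ± 0.11 for ora-1 (adjusted p = 0.409).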

How the data were processed

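Spot intensity was deposited as read by ScanArray Express, on a linear scale and not normalized, with a local background for each spot and dye. They were deposited with a percent of saturated pixels per spot and a quality score of unstated meaning, which was not used to drop spots. A further table by the authors, of log2 ratios, equalled loess on uncorrected foregrounds turned to DZN over control (correlation 1.0 per array, medians -0.015 to 0.011) and served as an alternative. The authors named limma without a version, and loess and Aquantile. For the probes, a genome build was not given in the sources used here.

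Of 22490 worm probes 21413 were matched to RefSeq genes (assembly WBcel235, for names and gene order), and several probes of a gene were reduced to the brightest. Foreground means were corrected by normexp (offset 50) on median local background, normalized by loess and Aquantile, and fitted with lmFit and eBayes in limma 3.58.1 (R 4.3.3) with a dye term, two-sided, Benjamini-Hochberg over all worm probes. The fit was tested on simulated data. The rank product test of the study and protein similarity were not run. All arrays were scanned on 1 date. The number of arrays limits the precision.

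The members and lists were chosen with earlier results of these data known. Named were all phat genes, all other gland genes, neighbours (most as counts), the 5 most similar profiles and up to 2 genes from each other list (some as medians only). Alternatives changed the background, normalization, spot summary, dim probe filter, dye term, moderation, pairing and arrays. Plain averages and dye differences with 1 array left out were added after the data were seen.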

Additional observations from a re-analysis of the deposited data

Results flagged for a closer look

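On 14 sets of 6 arrays, the ratios of the 8 phat genes and of 6 other gland genes, 2 had 1 array far from the others. The share of all worm probes with such an array was not taken. The phat ratios were also known when the family was chosen, so nothing is read from this count. For phat-7 this was DZN-Cy3 replicate 3 with a log2 ratio of 1.82, while the other arrays lay between -0.03 and 0.29. For B0280.7 it was DZN-Cy5 replicate 3 with 0.86, while the other arrays lay between -0.38 and 0.03. So the 2 genes did not share the array that stood apart.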

How the results depend on the processing

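The count of called worm probes was 4, with 2 under no background correction and in the authors' table, 0 under plain background subtraction and under robust and trended eBayes, 14 with dim probes left out (9 higher, 5 lower) and 30 with median centring (19 higher, 11 lower). With 1 array left out it was 0 to 132, with 132 (32 higher, 100 lower) without DZN-Cy3 replicate 3. With the replicate number as a block beside the dye term it was 0. Deviations of same-numbered arrays from their orientation mean gave r = 0.15, -0.01 and -0.08, and no array correlated best with the array of its own number. With 3 arrays per orientation these values cannot settle whether the numbers mark pairs. The scanner detector (PMT) settings for Cy3 and Cy5 were 50 and 50 on both replicate 3 arrays. They were 50 and 48 on the other DZN-Cy5 arrays and 55 and 48 on the other DZN-Cy3 arrays. The part of these settings in the ratios was not tested. No phat gene was called under any of 16 alternatives. The ratios of phat-3, phat-5 and phat-7 stayed above 0 in all of them, at 0.72 to 1.36, 0.57 to 1.13 and 0.15 to 0.57. The family median was 0.15 to 0.25 with other settings and -0.01 to 0.37 with 1 array left out, lowest without DZN-Cy3 replicate 3. Median centring moved the median of all worm probes to 0.04, the intestine median to 0.17 and the body wall muscle median to 0.16. It also gave 1 phat gene with a called dye term, phat-4 (0.69), and turned the dye terms of phat-2 (0.15) and phat-7 (0.13). The share of all worm probes with a called dye term under that setting was not taken, so nothing is read from this call. The cause was not tested. The dim phat-5 spot limits the precision of its ratio.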
